A study of Mus musculus with 12 samples.

Results

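The nuclear genes of the mitochondrial respiratory chain and of the ATP synthase were chosen by a rule on symbols. The rule itself uses no measured value, but the family was picked with earlier results of these data known. Its members are the measured genes whose symbol starts with Nduf, Uqcr or Atp5, or with Cox and a digit, together with Sdha to Sdhd and Cycs. The rule found 51 of the 9212 genes named on the array, read by 52 probes. By complex these were 18 genes of complex I, 1 of complex II, 3 of complex III, cytochrome c itself, 16 of complex IV and 12 of the ATP synthase, complex V. Structural subunits made up 47 of them, and 4 encode assembly or supercomplex factors (Ndufaf4, Ndufaf7, Cox17 and Cox7a2l).

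The series set embryoid bodies (EB), aggregates in which embryonic stem (ES) cells differentiate in many directions at once, against undifferentiated ES cells of the same R1 mouse line. Dissociated embryoid bodies were cultured on dishes with serum for 4, 8, 15 or 21 days, and ES cells were held on gelatin with leukemia inhibitory factor, a cytokine that keeps them undifferentiated. Each of the 4 days had 3 arrays with 2 channels, 12 in all, and every array carried EB RNA of 1 day and ES RNA. All groups came from 1 line, an embryoid body is a mixture of cell types, and in bulk RNA fewer cells of a type and less RNA per cell cannot be told apart.

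Values are the deposited log ratios, read as log2 by convention, and a positive value is read as more RNA in EB than in ES. That direction is likely but not settled, because sample titles and dye fields point one way and the labelling protocols the other. It rests on marker genes: the ES genes Zfp42 and Nanog were negative, and the yolk sac and fetal liver genes Afp and Ttr positive. If the reading is wrong, higher and lower change places in every sentence. A gene is called where limma's adjusted p, over all 10689 features tested, is at or under 0.05. The ES channel serves as 1 control sample whose own spread does not enter the test against ES. Nothing in the labels ties the 3 arrays of a day to separate cultures, and the p-values then cover array spread that may be technical.

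Arrays stood in 2 sets. A group of 96 features without a gene, at fixed positions of the layout, had medians of -1.04 or lower on 5 arrays (array 3 of each day and array 2 of day 8) and of -0.31 to 0.06 on the other 7. The 7 arrays are called the first set and the 5 the second. Within a day, arrays correlated over all features with r of 0.0059 to 0.202 at day 4, 0.351 to 0.619 at day 8, 0.390 to 0.821 at day 15 and 0.559 to 0.773 at day 21. All 7 ES cell markers were lower than in ES at day 21, all 6 markers of visceral endoderm and fetal liver were higher, as were all 5 of mesenchyme and 4 of 9 of heart muscle, while 0 of 4 blood markers and, of 4 neuronal ones, only Stmn2 (lower) were called. Their day 21 log2 ratios ran from -2.54 to -0.74 for ES, from 0.53 to 3.60 for endoderm, from 0.89 to 2.80 for mesenchyme and from -0.36 to 1.29 for heart muscle. ES and endoderm markers set the direction, so theirs is no evidence for it.

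The respiratory chain passes electrons through complexes I to IV of the inner mitochondrial membrane and pumps protons, and complex V uses the proton gradient to make ATP. Complex I takes electrons from NADH and complex II from succinate, coenzyme Q carries them to complex III, and cytochrome c carries them on to complex IV, cytochrome c oxidase, which reduces oxygen. Most subunits are encoded in the nucleus, and the chain is known to be used more as pluripotent cells, which rely heavily on glycolysis, differentiate.

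Genes of this pathway are known for promoters with sites of the nuclear respiratory factors. Of the 51 members, 42 had an entry in RefSeq's promoter table (GRCm38.p6), and the 250 bases before each start were searched on both strands. The NRF1 motif GCGCANGCG was found in 11 of the 42 (26.2%), against 5.86% of all 27025 genes in the table. The motif GCATGCGC, which can overlap the former on the other strand, was found in 9 members (21.4%), against 2.56% of all genes. The ETS core CCGGAAG, which NRF2 (GABP) can bind, was found in 5 members (11.9%) and 7.83% of all genes. The YY1 motif AAGATGGCG stood in 1 member (2.38%, against 0.71% of all genes) and the estrogen-related receptor motif TCAAGGTCA in 0 (against 0.422%). Of the 14 members with a promoter entry that were called in any comparison, 3 held GCGCANGCG, 2 held GCATGCGC and 1 held CCGGAAG. These 4 promoters are shown, together with that of Cox7c, a called member with none of the motifs. Each line gives the 150 bases up to the transcription start on the gene's own strand, with the matches, or their reverse complements, in capitals. They lie at chr6:50566570-50566719 (minus strand, Cycs), chr4:140961121-140961270 (plus, Sdhb), chr13:73328483-73328632 (minus, Ndufs6), chr11:115419920-115420069 (minus, Atp5h) and chr13:86046796-86046945 (minus, Cox7c).
Cycs: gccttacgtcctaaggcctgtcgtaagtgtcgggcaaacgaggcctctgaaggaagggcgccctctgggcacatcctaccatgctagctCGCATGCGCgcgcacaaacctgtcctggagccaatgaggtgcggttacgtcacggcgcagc
Sdhb: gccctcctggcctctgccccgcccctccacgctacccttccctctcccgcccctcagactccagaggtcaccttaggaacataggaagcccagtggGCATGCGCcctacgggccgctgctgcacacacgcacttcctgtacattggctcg
Ndufs6: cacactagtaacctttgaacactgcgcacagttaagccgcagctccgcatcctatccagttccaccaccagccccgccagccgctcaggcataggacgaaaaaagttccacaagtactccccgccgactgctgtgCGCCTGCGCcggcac
Atp5h: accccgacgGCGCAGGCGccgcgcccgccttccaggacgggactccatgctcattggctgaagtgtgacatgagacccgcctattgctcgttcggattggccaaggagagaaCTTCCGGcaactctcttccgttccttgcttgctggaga
Cox7c: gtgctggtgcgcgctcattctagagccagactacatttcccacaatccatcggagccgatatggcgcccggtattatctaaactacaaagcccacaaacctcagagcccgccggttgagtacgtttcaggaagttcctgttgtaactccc
In Cycs GCGCANGCG and GCATGCGC lay on top of each other, 61 to 53 bases before the start, and in Sdhb the match was 54 to 47 bases before it. The match of Ndufs6 was 15 to 7 bases before the start. Atp5h had an NRF1 match at 141 to 133 bases and an ETS match at 38 to 32 bases. A match is a run of letters and not a measured binding site.

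Seen whole, the chain genes lay slightly above ES at day 4 and slightly below it at day 21. Their median log2 ratio was 0.04 at day 4, -0.02 at day 8, -0.09 at day 15 and -0.17 at day 21, where the median of all features was -0.0011 at day 4, -0.00097 at day 8, 0.0074 at day 15 and 0.0031 at day 21. The count of members with a mean below 0 was 20 at day 4, 28 at day 8, 35 at day 15 and 37 at day 21, of 51. Array by array, the median of the 51 genes was 0.09, 0.02 and 0.07 at day 4, 0.03, 0.02 and -0.12 at day 8, 0.02, -0.07 and -0.09 at day 15, and -0.19, -0.16 and -0.14 at day 21. All 3 arrays of day 21 lay below all 3 of day 4. The day 15 median rests on 1 array: without array 3 of that day it was -0.0089, with 28 of 51 below 0. The day 8 median turned to 0.0021 without array 3 of day 8. The lowest member mean at day 21 was -0.68 (Cox7c) and the highest 0.33 (Ndufa2), where the 7 ES markers ran from -2.54 to -0.74.

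**Figure D1:**
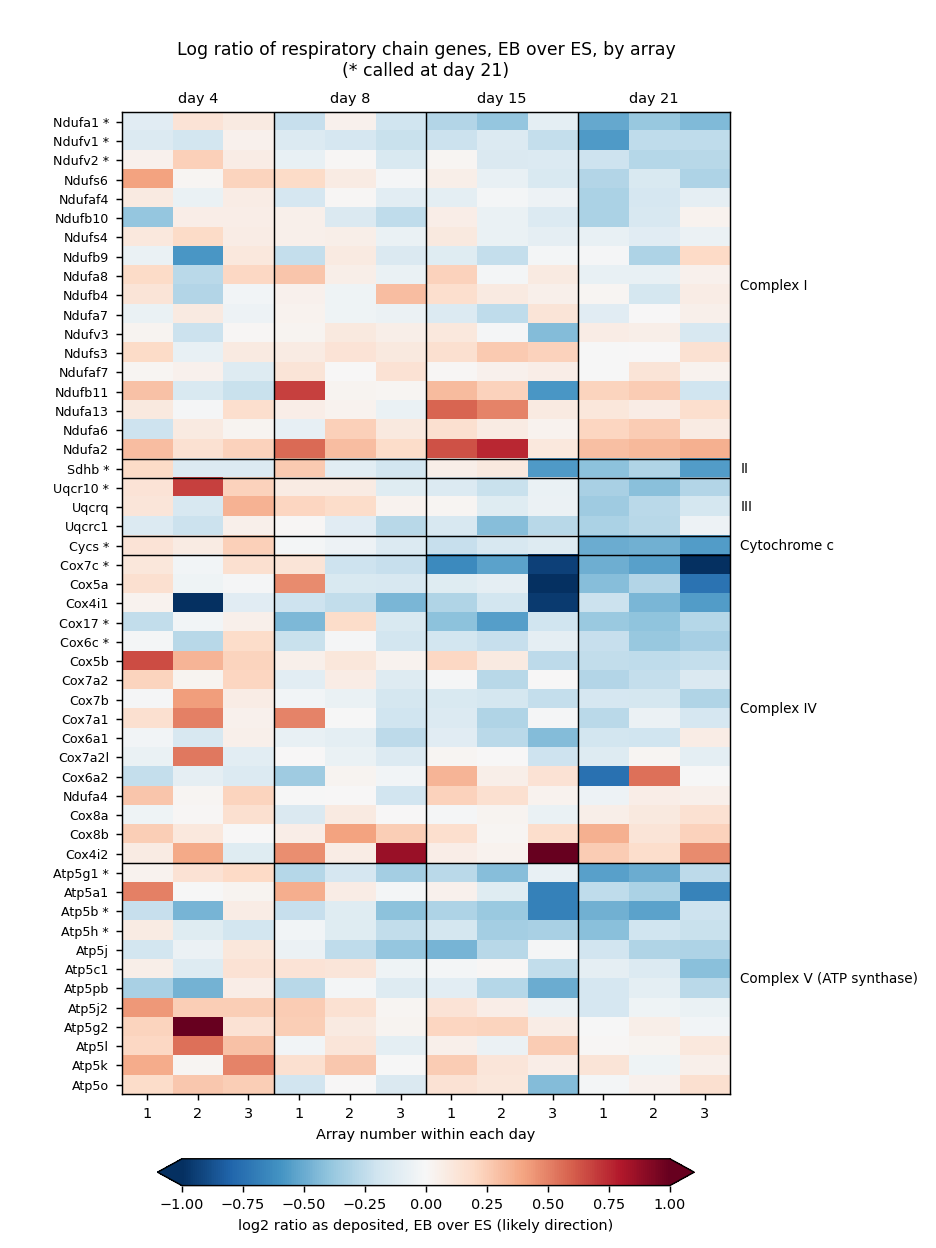
Log2 ratio (EB over ES, colour, blue below 0 and red above) of each of the 51 chain genes (rows, grouped by complex, with an asterisk where day 21 was called) on each of the 12 arrays (columns, by day and array number). The day 21 columns are mostly blue, and the day 4 columns, with a median near 0.04, are mixed.

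At day 4 and at day 8, 0 chain genes were called by limma, against 0.0% and 2.28% of all features (1.06% lower and 1.23% higher at day 8). An unadjusted p under 0.05 was reached by 11 members at day 4 and 7 at day 8. Of all 10689 features, 1081 reached it at day 4 and 2053 at day 8. At day 15, 6 members were called (11.8%, against 10.6% of all features, 4.9% lower and 5.66% higher), 2 of them higher (Ndufa2 and Ndufa13) and 4 lower (Atp5b, Atp5h, Cox17 and Cox7c), so the share called was near the background. At day 21, 12 members were called, all lower than in ES (23.5%, where 18.7% of all features were called with 9.93% lower and 8.78% higher). They came from every complex: Ndufa1, Ndufv1 and Ndufv2 of complex I, Sdhb of complex II, Uqcr10 of complex III, Cycs, Cox6c, Cox7c and Cox17 of complex IV, and Atp5b, Atp5h and Atp5g1 of complex V. Without array 1, 2 or 3 of day 21 the count was 3, 5 or 6. All features were called there in 7.04%, 8.16% and 16.9% (3.97%, 4.49% and 8.84% lower). Without array 1 or 2 of day 15 the day 15 count was 1, against 2.87% and 2.2% of all features. With the arrays scaled to 1 spread, 2 members were higher and 2 lower at day 15 (4.66% and 3.94% of all features). At day 21 quantile normalization and scaling each gave 5 calls, all lower (9.8% of members), against 9.99% and 9.08% of all features called and 4.98% and 4.74% called lower. Under these 2 settings the share of members called at day 21 was thus near that of all features.

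Day 21 was also set against day 4. Here 9 members fell and 0 rose (17.6%, where 5.84% of all features were called with 3.22% lower and 2.62% higher): Ndufa1, Ndufs6 and Ndufv2, Uqcr10, Cycs, Cox5b and Cox7c, and Atp5g1 and Atp5j2. In this difference a dye effect of a gene drops out if it was alike on all arrays. Without a dye swap it stays in a ratio against ES, and the labels give no swap. For 25 of the 51 members (49%) all 3 day 21 arrays lay below all 3 day 4 arrays, and for 0 members all lay above. Among all features 12.2% lay wholly below and 12.6% wholly above. The day 21 ratio and the difference use the same day 21 arrays. The count was 3 without array 1 or without array 3 of day 4, against 2.49% and 4.36% of all features. Without arrays 1, 2 and 3 of day 21 it was 3, 2 and 5, against 2.09%, 2.47% and 6.37% of all features. On the 7 arrays of the first set alone it was 5 (7.76% of all features), and under quantile normalization or scaling 4 (3.5% and 2.88% of all features), all lower at day 21. None of the steps from day 4 to 8, day 8 to 15 or day 15 to 21 gave a called member by limma. By adjusted p, 0.0%, 0.178% and 0.00936% of all features were called in these steps. An unadjusted p under 0.05 was reached by 6, 2 and 1 of the 51 members, and by 746, 985 and 674 of all 10689 features. The F-test of any difference between days called Cycs (adjusted p = 0.0114) and Cox7c (adjusted p = 0.0283), 3.92% of the members against 2.9% of all features. Without array 1 of day 21 it called 0 members (0.945% of all features), and without array 3 of day 15 it called 6 (5.08%). Without array 1 or 3 of day 4, array 2 of day 8, array 1 of day 15 or array 2 of day 21 it called 1. In those fits 1.01% to 1.72% of all features were called.

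**Figure D2:**
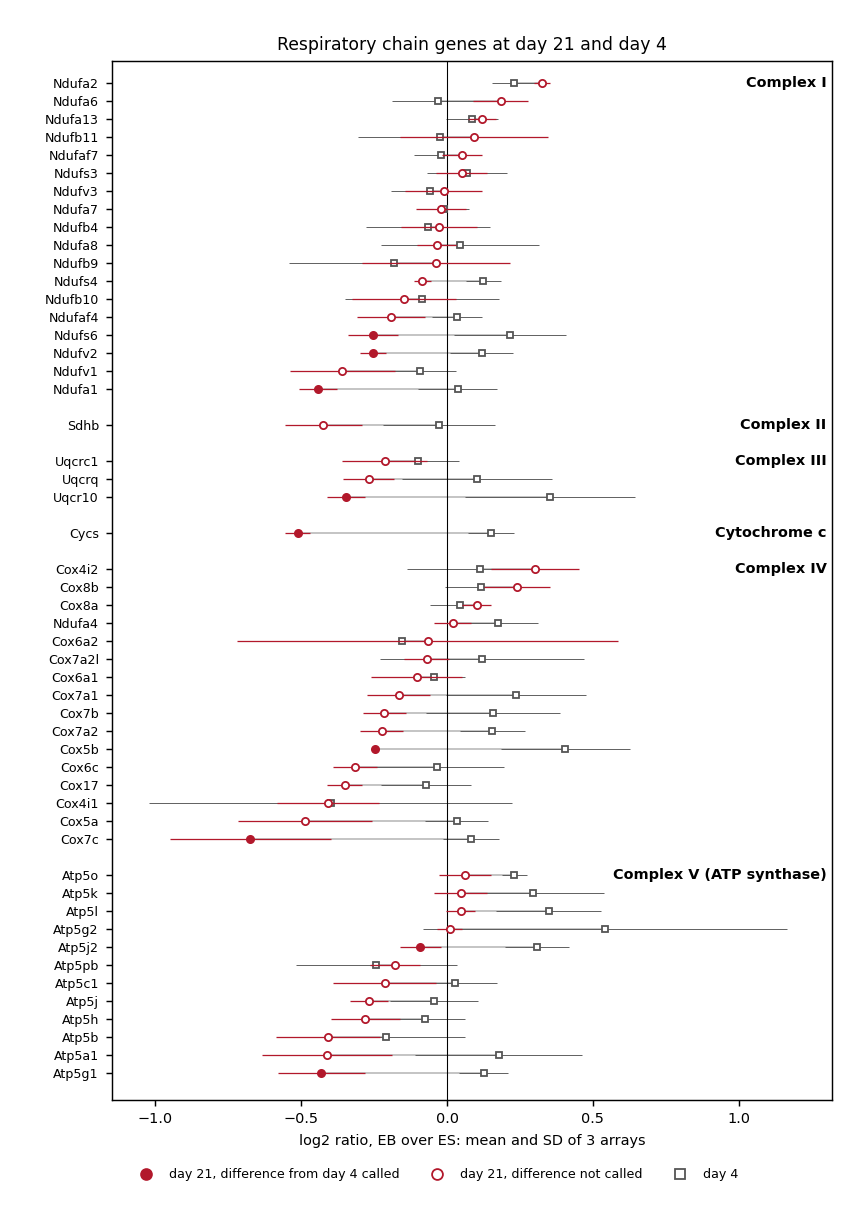
Mean log2 ratio (EB over ES) of each chain gene at day 21 (circles, filled where the difference from day 4 was called) and at day 4 (grey squares), with SD over 3 arrays, grouped by complex. The 9 filled circles lie left of their squares, and the day 21 means span -0.68 to 0.33.

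Cytochrome c, the small heme protein between complexes III and IV and also a trigger of apoptosis when released, had a lower mean on each later day. Cycs stood at 0.14, 0.08 and 0.24 on the day 4 arrays, at -0.02, -0.05 and -0.14 at day 8, at -0.23, -0.16 and -0.13 at day 15 and at -0.50, -0.48 and -0.56 at day 21. Day 4 lay wholly above the other days and day 21 wholly below them, while the arrays of days 8 and 15 overlapped. At day 21 it was -0.51 ± 0.04 (SD, n = 3, limma adjusted p = 0.0003), and the difference from day 4 was -0.66 (SE 0.09, adjusted p = 0.00227). Both calls held in every alternative fit that was run.

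Complex I, the largest complex and the entry point of NADH, had a median near 0 at day 21. Its 18 genes had a median of -0.03 at day 21 and -0.02 for the difference from day 4. At day 21 against ES 3 fell, 3 fell against day 4, and 0 rose in either. The 3 of 18 at day 21 (16.7%, all lower) lay below the 18.7% of all features called and above the 9.93% called lower. Against day 4 the share was also 16.7%, where 5.84% of all features were called and 3.22% called lower. Ndufa1, a small accessory subunit of the membrane arm side, was at -0.51, -0.38 and -0.44 at day 21, against -0.12, 0.14 and 0.09 at day 4. The groups did not overlap, and the mean of day 21 was -0.44 ± 0.07 (SD, n = 3, adjusted p = 0.00376, a call that held in all alternatives). Its difference from day 4 was -0.48 (SE 0.12, adjusted p = 0.0358); that call was lost without any 1 array of day 4 or day 21 or without array 1 of day 15, and under quantile normalization, scaling or the first set alone, with adjusted p of up to 0.138 and a difference of -0.39 or lower in every alternative. Ndufv2, a core subunit with an iron-sulfur cluster, was at -0.20, -0.28 and -0.28 at day 21, against 0.04, 0.24 and 0.07 at day 4, with no overlap. It fell against ES (-0.26 ± 0.04, adjusted p = 0.0268), and its difference of -0.37 (SE 0.10, adjusted p = 0.0497) was just inside the threshold. The day 21 call was lost without any 1 day 21 array (adjusted p up to 0.127), under quantile normalization or scaling, on the first set alone (0.11) and with the day fitted alone. The difference lost its call in 18 of 21 alternatives: without any array but array 3 of day 15 (adjusted p up to 0.14), with the replicate block (0.071), the array set as a term (0.051), a robust prior (0.0517) or single probes (0.0556), under quantile normalization (0.0924) or scaling (0.0993), and on the first set alone (0.138).

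Ndufv1, the core subunit that binds NADH and the flavin FMN, was at -0.57, -0.25 and -0.26 at day 21, against -0.14, -0.18 and 0.05 at day 4, with no overlap. Array 1 was the low one at day 21, and without it the call was lost (-0.25, adjusted p = 0.099), as with the day fitted alone (0.0669). It fell against ES (-0.36 ± 0.18, SD, n = 3, adjusted p = 0.00848), and the difference from day 4 was not called (-0.27, SE 0.11, adjusted p = 0.207). Ndufs6, an accessory subunit of the matrix arm, was at -0.30, -0.16 and -0.31 at day 21, against 0.40, 0.02 and 0.22 at day 4, with no overlap. Its day 21 mean of -0.25 ± 0.09 missed the threshold against ES (adjusted p = 0.0532), and its difference from day 4 was called at -0.47 (SE 0.12, adjusted p = 0.0382). Without array 1 of day 4 the difference was -0.37 (adjusted p = 0.151), and it also lost its call without array 3 of day 4, array 2 of day 8, array 2 of day 15 or any array of day 21 (adjusted p of 0.0573 to 0.136), under quantile normalization (0.067) or scaling (0.0701), and on the first set alone (0.157).

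Both members that rose at day 15 belong to complex I. Ndufa2, an accessory subunit of the matrix arm, was at 0.30, 0.15 and 0.23 at day 4, 0.57, 0.30 and 0.19 at day 8, 0.64, 0.76 and 0.11 at day 15 and 0.30, 0.32 and 0.35 at day 21, above 0 on all 12 arrays. The day 15 mean was 0.50 ± 0.34 (SD, n = 3, adjusted p = 0.0142), and its day 21 mean of 0.33 ± 0.03, the highest of the chain, was not called (adjusted p = 0.0606). Ndufa13, also known as Grim19, was at 0.58, 0.49 and 0.09 at day 15, with a mean of 0.39 ± 0.26 (adjusted p = 0.0176), and at 0.11, 0.08 and 0.17 at day 21. For both genes array 3 of day 15, of the second set, was the low one. Both calls were lost without array 1 or without array 2 of day 15 (adjusted p = 0.122 and 0.171 for Ndufa2, and 0.169 and 0.167 for Ndufa13) and with the day fitted alone (0.12 and 0.138), and that of Ndufa2 also under quantile normalization (0.0572). The other 12 complex I genes, among them Ndufs3, a core subunit of the matrix arm, and the assembly factors Ndufaf4 and Ndufaf7, were called in no comparison, with day 21 means of -0.19 to 0.18.

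Complex II was read by its iron-sulfur subunit Sdhb alone. Sdhb was at 0.19, -0.14 and -0.14 at day 4, 0.26, -0.10 and -0.19 at day 8, 0.06, 0.10 and -0.57 at day 15 and -0.41, -0.30 and -0.56 at day 21. Up to day 15 its arrays lay on both sides of 0, with array 3 of day 15 apart from the other two, and at day 21 all 3 were below. It fell at day 21 (-0.42 ± 0.13, SD, n = 3, adjusted p = 0.0408), and the difference from day 4 was not called (-0.40, SE 0.19, adjusted p = 0.262). The day 21 call was lost without array 1, 2 or 3 of day 21 (adjusted p = 0.147, 0.0968 and 0.162), without array 2 of day 8 (0.055), and under quantile normalization (0.132) or scaling (0.147).

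All 3 genes of complex III had day 21 means below 0. Uqcr10, a small subunit, was at -0.32, -0.42 and -0.29 at day 21, against 0.14, 0.69 and 0.23 at day 4. The groups did not overlap, and array 2 of day 4 was the high one. It fell against ES (-0.35 ± 0.07, SD, n = 3, adjusted p = 0.0273), and the difference from day 4, -0.70 (SE 0.14, adjusted p = 0.0122), kept its call in all alternatives but the one without array 2 of day 21 (-0.66, adjusted p = 0.0541). The call against ES was lost without array 1, 2 or 3 of day 21 (adjusted p = 0.108, 0.148 and 0.0593), under quantile normalization (0.0784) or scaling (0.0627), and on the first set alone (0.0895). Uqcrc1, a core protein of the complex, was at -0.31, -0.28 and -0.05 at day 21, against -0.14, -0.21 and 0.05 at day 4, and was called in no comparison (adjusted p = 0.113 at day 21). Uqcrq, another small subunit, was at -0.35, -0.27 and -0.18 at day 21, against 0.12, -0.16 and 0.35 at day 4, and missed the threshold against ES (adjusted p = 0.0578). Cyc1, the cytochrome c1 of complex III that the symbol rule does not reach, was at -0.87, -0.70 and -0.52 at day 21 and fell against ES (-0.70 ± 0.18, adjusted p = 0.00108) and against day 4 (-0.78, adjusted p = 0.012). It was added for its role after its values were available. Of the 5 chain genes added in this way it was the only 1 called at day 21 (20%, against 18.7% of all features called and 9.93% called lower). It was also the only 1 called against day 4.

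Complex IV had 16 genes, a median of -0.19 at day 21 and of -0.23 for the difference from day 4. At day 21 against ES 3 fell, 2 fell against day 4 and 0 rose. At day 21 that is 18.75% of its genes, against 18.7% of all features called and 9.93% called lower. Against day 4 it is 12.5%, where 5.84% of all features were called and 3.22% called lower. Cox7c, a small nuclear-encoded subunit, had the lowest mean of the chain at both late days. It was at 0.11, -0.02 and 0.16 at day 4, 0.13, -0.21 and -0.23 at day 8, -0.64, -0.53 and -0.93 at day 15 and -0.49, -0.54 and -0.99 at day 21. Arrays of days 15 and 21 lay below all those of the 2 earlier days, and array 3 was the lowest on both. Its mean was -0.70 ± 0.21 at day 15 (SD, n = 3, adjusted p = 0.00253) and -0.68 ± 0.28 at day 21 (adjusted p = 0.0017), and both calls held in all alternatives. The difference between day 21 and day 4 was -0.76 (SE 0.16, adjusted p = 0.016), and lost its call without array 1 (adjusted p = 0.064) or array 3 of day 4 (0.0507) and with the arrays scaled to 1 spread (0.0752).

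Cox5b, a nuclear-encoded subunit, was at -0.25, -0.26 and -0.24 at day 21, against 0.65, 0.34 and 0.23 at day 4, with no overlap. The difference of -0.65 (SE 0.14, adjusted p = 0.016) was called, and the day 21 ratio itself was not (-0.25 ± 0.01, SD, n = 3, adjusted p = 0.0954), with day 4 above 0 on all 3 arrays. The call was lost without array 1 of day 4 (-0.53, adjusted p = 0.0719) or array 1 or 2 of day 21 (0.0643 and 0.0584), and under quantile normalization (0.0558). Cox6c, another subunit, was at -0.23, -0.38 and -0.33 at day 21, against -0.02, -0.27 and 0.19 at day 4. The days overlapped, and it fell against ES (-0.31 ± 0.08, adjusted p = 0.0264). Cox17, the copper chaperone that supplies the oxidase, was at -0.41, -0.55 and -0.20 at day 15 and -0.37, -0.40 and -0.28 at day 21. It fell on both days (-0.39 ± 0.18, adjusted p = 0.0439, and -0.35 ± 0.06, adjusted p = 0.0444). The Cox6c call was lost without any 1 day 21 array (adjusted p up to 0.143), under quantile normalization or scaling, on the first set alone and with the day fitted alone (0.0552 to 0.108). Both Cox17 calls were near the threshold: the day 15 call was lost without any of 8 arrays (array 2 or 3 of day 4, array 3 of day 8, array 1 or 2 of day 15, any of day 21; adjusted p up to 0.305) and the day 21 call without any of 5 (array 3 of day 8, array 1 of day 15, any of day 21; up to 0.182). Quantile normalization (0.102 and 0.203) and scaling (0.0867 and 0.169) ended both, and fitting the day alone the first (0.0987).

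The nuclear-encoded subunits Cox4i1 and Cox5a, which surround the catalytic core, were not called on any day, and single arrays stood apart in both. Cox5a was at 0.16, -0.05 and -0.01 at day 4, 0.47, -0.16 and -0.16 at day 8, -0.12, -0.09 and -1.01 at day 15 and -0.42, -0.29 and -0.74 at day 21 (-0.49 ± 0.23, SD, n = 3, adjusted p = 0.0654), with array 3, of the second set, the lowest at days 15 and 21. Cox4i1 was at 0.03, -1.11 and -0.12 at day 4, -0.21, -0.25 and -0.46 at day 8, -0.30, -0.18 and -0.96 at day 15 and -0.21, -0.45 and -0.56 at day 21, below 0 on 11 of 12 arrays. Array 2 of day 4 and array 3 of day 15 were the low ones. Its day 21 mean was -0.41 ± 0.17 (adjusted p = 0.159).

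Where isoforms of 1 subunit were both measured, their log ratios to ES were set side by side, which compares changes and not levels. Cox4i2, the isoform of subunit 4 found in lung and induced by low oxygen, had the highest day 21 mean of complex IV (0.30 ± 0.15, SD, n = 3, adjusted p = 0.278). Its arrays were 0.08, 0.38 and -0.12 at day 4, 0.46, 0.08 and 0.86 at day 8, 0.06, 0.03 and 1.02 at day 15 and 0.26, 0.18 and 0.47 at day 21. It lay above Cox4i1 on 11 of 12 arrays, with a difference at day 21 of 0.71 ± 0.28. The heart and muscle isoforms Cox6a2, Cox7a1 and Cox8b gave 0 calls. Cox6a2 lay above its liver isoform Cox6a1 on 7 of 12 arrays, Cox7a1 above Cox7a2 on 4 and Cox8b above the common Cox8a on 10. Day 21 means were -0.07 ± 0.65 for Cox6a2 and -0.10 ± 0.16 for Cox6a1, -0.17 ± 0.11 for Cox7a1 and -0.22 ± 0.07 for Cox7a2, and 0.24 ± 0.11 for Cox8b and 0.10 ± 0.05 for Cox8a (SD, n = 3 each). Cox7a2l, a related protein that joins complexes III and IV, lay above Cox7a2 on 7 of 12 arrays. Ndufa4, first named as a complex I subunit and now counted with the oxidase, was at 0.02 ± 0.06 at day 21 (adjusted p = 0.894).

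**Figure D3:**
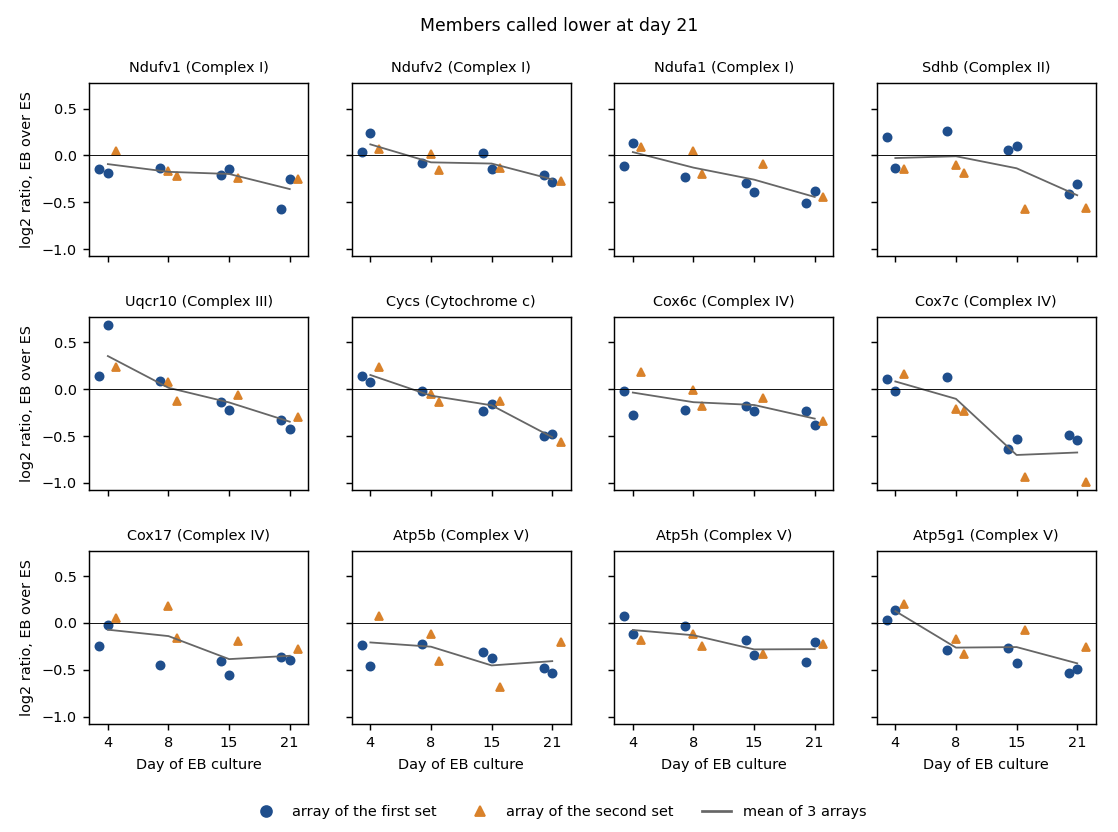
Log2 ratio (EB over ES, vertical axis) by day of culture (horizontal axis) for the 12 members called lower at day 21. Each point is 1 array (circles for the first set, triangles for the second) and lines join the means of 3 arrays. The mean of Cycs is lower on each later day, reaching -0.51 ± 0.04 (SD, n = 3) at day 21, and all arrays of Cox7c at days 15 and 21 lie below those of days 4 and 8.

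The ATP synthase had 12 measured genes, with a median of -0.20 at day 21 and of -0.24 for the difference from day 4. At day 21 against ES 3 fell, 2 fell against day 4 and 0 rose. At day 21 that is 25% of its genes, against 18.7% of all features called and 9.93% called lower. Against day 4 it is 16.7%, where 5.84% of all features were called and 3.22% called lower. Atp5b, the catalytic beta subunit, was at -0.23, -0.46 and 0.07 at day 4, -0.23, -0.12 and -0.41 at day 8, -0.31, -0.37 and -0.68 at day 15 and -0.48, -0.53 and -0.20 at day 21. It lay below 0 on 11 of 12 arrays, day 4 included. It fell at day 15 (-0.45 ± 0.20, SD, n = 3, adjusted p = 0.0224) and day 21 (-0.41 ± 0.18, adjusted p = 0.024), and the difference from day 4 was not called (-0.20, SE 0.16, adjusted p = 0.545). The day 15 call was lost without array 1, 2 or 3 of that day (adjusted p = 0.0674, 0.106 and 0.103), and the day 21 call without array 1 or 2 of that day (0.141 and 0.154). Fitting day 15 alone also ended the first (0.0823), and quantile normalization (0.0689) and scaling (0.0972) the second. Its partner in the catalytic head, the alpha subunit Atp5a1, was at -0.25, -0.32 and -0.66 at day 21, against 0.51, -0.0042 and 0.03 at day 4. It missed the threshold against ES (-0.41 ± 0.22, adjusted p = 0.064) and against day 4 (-0.59, SE 0.20, adjusted p = 0.118), and array 3 was the low one at day 21 and, at -0.67, at day 15.

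Atp5g1 and Atp5g2 encode the same mature subunit of the c ring, the part of the rotor in the membrane, with different import signals. Atp5g1 was at -0.54, -0.49 and -0.26 at day 21, against 0.04, 0.14 and 0.20 at day 4. It fell against ES (-0.43 ± 0.15, SD, n = 3, adjusted p = 0.00453) and against day 4 (-0.56, SE 0.12, adjusted p = 0.0182), with no overlap between the days. Without array 1 of day 21 the first call was lost (-0.38, adjusted p = 0.0541), and the second without array 3 of day 4 or array 1 or 2 of day 21 (adjusted p = 0.058, 0.0895 and 0.0726). Atp5g2 was at -0.01, 0.06 and -0.03 at day 21, against 0.22, 1.26 and 0.14 at day 4, and was not called (-0.53, SE 0.23, adjusted p = 0.209 between the days). Array 2 of day 4 was its high one. Atp5g2 lay above Atp5g1 on 11 of 12 arrays, with a difference of 0.44 ± 0.18 at day 21.

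Atp5h, a subunit of the peripheral stalk that holds the head still, was at -0.18, -0.34 and -0.33 at day 15 and -0.42, -0.20 and -0.22 at day 21. It fell on both days (-0.28 ± 0.09, SD, n = 3, adjusted p = 0.042, and -0.28 ± 0.12, adjusted p = 0.0291). The day 15 call was lost without any 1 array of that day, array 2 of day 8 or array 2 of day 21 (adjusted p of 0.051 to 0.252), and the day 21 call without any 1 array of day 21 (0.0557 to 0.209). Quantile normalization, scaling, the day fitted alone and the first set alone ended both (up to 0.131 at day 15 and 0.115 at day 21), and the replicate block the first (0.0511). Atp5j2, the membrane subunit f, was at -0.17, -0.04 and -0.07 at day 21, against 0.44, 0.24 and 0.25 at day 4, with no overlap. The difference was called (-0.40, SE 0.11, adjusted p = 0.047), while the day 21 ratio was near 0 and not called (-0.09 ± 0.07, adjusted p = 0.431). Leaving out any 1 array of days 4 or 21, array 2 of day 8 or array 1 or 2 of day 15 ended the call (adjusted p of 0.0628 to 0.178), as did the replicate block (0.0568), quantile normalization (0.0543), scaling (0.0618), the first set alone (0.0867) and single probes (0.0519). Atp5o, of the peripheral stalk, had the highest day 21 mean of the complex (0.06 ± 0.09, adjusted p = 0.713). The other 5 members (Atp5c1, Atp5pb, Atp5j, Atp5k and Atp5l) were called in no comparison, with day 21 means of -0.27 to 0.05.

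Over all comparisons 17 of the 51 members were called at least once and 34 never. The share of all features called at least once was not counted, so the 17 cannot be set against it. At day 21 against ES alone it was 18.7%. Differences from day 4 between complexes were not tested, and the medians above overlap in the ranges of their members: complex I members ran from -0.48 to 0.21, complex IV from -0.76 to 0.19 and complex V from -0.59 to 0.07. The 7 lowest values on array 3 of day 15, an array of the second set, were each below both other arrays of that day: Cox5a (-1.01), Cox4i1 (-0.96), Cox7c (-0.93), Atp5b (-0.68), Atp5a1 (-0.67), Ndufb11 (-0.58) and Sdhb (-0.57). Picking the lowest values of an array favours that outcome. Other members lay above both other arrays there, among them Cox4i2 (1.02), Ndufa7 (0.13) and Atp5j (-0.01). With the array set as a term in the model, 7 members were called at day 15 (13.7%, against 12% of all features), 15 at day 21 (29.4% against 19.9%) and 9 between day 21 and day 4 (17.6% against 6.94%). The part of these arrays and of the markers of other cell types in the results was not tested.

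Other mitochondrial genes were described in the same way, by lists written from textbook knowledge. Of 52 mitochondrial ribosome genes, whose products translate the mitochondrially encoded chain subunits, 16 fell and 2 rose against ES at day 21 (median -0.23), and 8 fell and 0 rose against day 4 (median -0.30). Against day 4 that is 15.4% of the list, where 5.84% of all features were called and 3.22% called lower. The lowest was Mrpl15 at -0.80, -0.84 and -1.10 at day 21 (-0.91 ± 0.16, SD, n = 3, adjusted p = 0.000965). Mrps31 (-0.75), Mrps5 (-0.66) and Mrps23 (-0.57) followed it. Of 15 genes of the citric acid cycle and its entry, which supply the chain with electrons, 4 fell and 1 rose at day 21 (median -0.15). Against day 4, 0 were called, and 6 reached an unadjusted p under 0.05, as did 2097 of all 10689 features. Idh3a of isocitrate dehydrogenase was at -0.93, the citrate synthase Cs at -0.77 and Pdha1 of pyruvate dehydrogenase at -0.32, while Idh2, an isocitrate dehydrogenase that makes NADPH, was higher at 0.46. Among 24 import and carrier genes, 6 fell and 1 rose (median -0.16). The ADP/ATP carrier Slc25a5, through which made ATP leaves the organelle, was at -0.83, -0.77 and -0.63 at day 21 (-0.74 ± 0.11, SD, n = 3, adjusted p = 0.00037), the outer membrane channel Vdac1 at -0.66, and the import gene Timm8a1 at -0.58, while Timm21 was higher at 0.50. Against day 4, 3 genes of this list fell (12.5%, where 5.84% of all features were called and 3.22% called lower).

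The 14 regulators of mitochondrial biogenesis gave 3 calls at day 21, all lower: Gabpa, the DNA-binding subunit of NRF2 (-0.40, adjusted p = 0.0058), Ssbp1, which coats single-stranded mitochondrial DNA (-0.32, adjusted p = 0.035), and Tfam, which packs and transcribes it (-0.26, adjusted p = 0.0349). The 3 calls are 21.4% of the list, against 18.7% of all features called and 9.93% called lower. Of these, Gabpa and Ssbp1 also fell against day 4 (14.3%, where 5.84% of all features were called and 3.22% called lower). Nrf1 was at 0.14 (adjusted p = 0.33) and the coactivator Ppargc1a at -0.36 (adjusted p = 0.373), with no call. Of 7 assembly factors with other symbols, only Timmdc1, a factor of complex I, was called (-0.30, adjusted p = 0.0191), a share of 14.3%. Read against the 9.93% of all features that were lower at day 21, the shares lower were 23.5% for the chain, 30.8% for the mitochondrial ribosome and 26.7% for the citric acid cycle. For import and carriers it was 6 of 24 genes (25%).

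**Figure D4:**
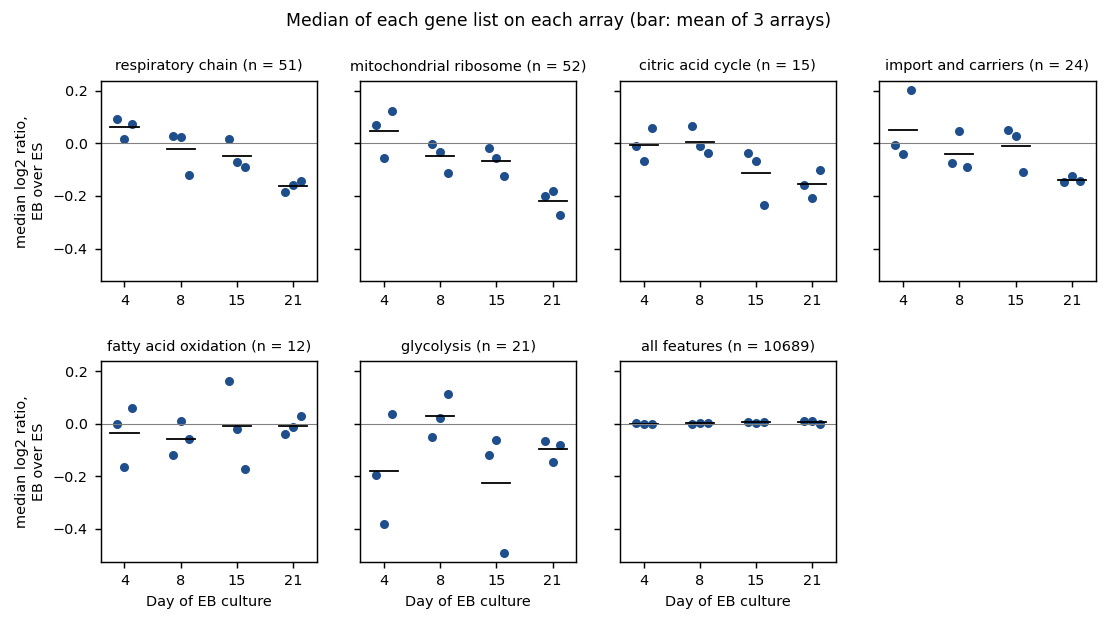
Median log2 ratio (EB over ES, vertical axis) of each gene list on each array (points) by day of culture (horizontal axis), with bars at the mean of 3 arrays; the number of genes is in each title. The respiratory chain medians lie between -0.19 and -0.14 on the day 21 arrays, against 0.02 to 0.09 on the day 4 arrays.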

How the data were processed

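The members, the gene lists and the comparisons were chosen with earlier results of these data known. Per the labels' protocols, total RNA was copied into double-stranded cDNA and transcribed with Cy3- or Cy5-labelled UTP. The deposited values are log2 ratios (base 2 is a convention), normalized by the authors. The normalization method, scanner, background correction and spot filters are not given in the sources used here. Signal intensities did not enter. The table held 11520 features with no missing value; each array's median lay between -0.0018 and 0.0106. The platform annotation gave 10043 features 1 symbol, 29 several and 1448 none. Probes of a gene were averaged, which left 10689 features. The number of arrays limits the precision.

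With R 4.3.3 and limma 3.58.1 (lmFit, eBayes), 1 model held a mean for each day over 12 arrays (residual df 8, prior df 4.35). Day means were tested against 0, and days against each other by contrasts and a moderated F-test. Tests were two-sided, with Benjamini-Hochberg adjustment over all features and a threshold of 0.05. The fit was tested on simulated data. Groups and array numbers come from the sample titles.

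Named are the members called in any comparison, Cycs, core and main subunits, isoform pairs, the highest and lowest day 21 mean of each complex, and at most 4 called genes of each other list. The alternatives left out each array, added the replicate number or the array set, changed the scaling, the weights, the samples fitted, the prior or the probe rule. The last 2, the first array set alone and a fit without the 96 features, were added after the data were seen. Chain genes without an Nduf, Sdh, Uqcr, Cox or Atp5 symbol (Cyc1, Cyct, Dmac2l, Atpif1 and Uqcc1) were added for their role after the files were seen. Promoters come from RefSeq (GRCm38.p6). Figures were drawn with matplotlib 3.10.9.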

Additional observations from a re-analysis of the deposited data

Results flagged for a closer look

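For 9 members the test of the difference between day 21 and day 4 itself passed the threshold, so the ratio to ES differed between these days. The differences, day 21 minus day 4 in log2, were -0.47 for Ndufs6, -0.37 for Ndufv2 and -0.48 for Ndufa1 of complex I, -0.70 for Uqcr10 of complex III, -0.66 for Cycs, -0.65 for Cox5b and -0.76 for Cox7c of complex IV, and -0.56 for Atp5g1 and -0.40 for Atp5j2 of complex V (3 arrays a day, limma's adjusted p of 0.00227 to 0.0497). These 9 are 17.6% of the members, where 5.84% of all features were called and 3.22% called lower. All 9 were lower at day 21, on all 3 arrays of day 21 against all 3 of day 4. The calls were made on these same arrays, so the lack of overlap is no separate evidence. Leaving out a single array ended 8 of these 9 calls, all but that of Cycs. Array 3 of day 15 (0.375) and array 2 of day 4 (0.441) had the lowest weights that limma's array weights gave, where the highest was 2.37.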

How the results depend on the processing

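No alternative turned the direction of a called member: of 585 refits of the 27 member calls, 443 kept the call and 142 lost it. The calls of Ndufa1, Cycs and Cox7c at day 21, of Cox7c at day 15 and of Cycs between day 21 and day 4 were kept in every alternative run. With the replicate number as a block, 5 members were called at day 15, 14 at day 21 and 8 between day 21 and day 4. All features were called in that fit in 11.6%, 19% and 5.74%. The numbers were not taken to pair the arrays, since only 8 of 18 same-numbered pairs had deviations correlated above 0.1 (range -0.14 to 0.39). Counts moved by more than 1.5 times as follows, and the cause was not tested. Quantile normalization gave 3 calls at day 4, 1 at day 8, 3 at day 15, 5 at day 21 and 4 for day 21 minus day 4, against 1.28%, 4.85%, 7.26%, 9.99% and 3.5% of all features. Scaling of the arrays to 1 spread gave 1 at day 8, 5 at day 21, 4 for day 21 minus day 4 and 1 in the F-test (5.44%, 9.08%, 2.88% and 1.55% of all features). Array weights gave 2 at day 4, 2 at day 8, 15 at day 15, 2 for day 15 minus day 8 and 10 in the F-test. All features were called there in 0.879%, 9.35%, 30.4%, 5.44% and 13.2%, so the 15 members at day 15 (29.4%) were at the background. The array set as a term gave 1 at day 8 and 4 in the F-test (4.25% and 3.81% of all features). With each day fitted alone, 1 was called at day 15 (2.42% of all features). The first set alone, chosen after seeing the data, gave 5 for day 21 minus day 4 and 1 in the F-test (7.76% and 5.1% of all features). Leaving out 1 array gave 0 to 0 at day 4, 0 to 1 at day 8, 1 to 7 at day 15, 3 to 16 at day 21, 2 to 9 for day 21 minus day 4, 0 to 0 for day 8 minus day 4, 0 to 1 for day 15 minus day 8, 0 to 0 for day 21 minus day 15 and 0 to 6 in the F-test. The share of all features called moved over the same fits as well. It ran from 0.0561% to 3.56% at day 8, 2.2% to 14.5% at day 15 and 7.04% to 20.8% at day 21. For day 21 minus day 4 it was 2.09% to 7.23%, and in the F-test 0.945% to 5.08%. The median of the members for day 21 minus day 4 stayed between -0.23 and -0.16 in all settings. At day 21 it ranged from -0.20 to -0.11 and at day 15 from -0.13 to -0.0089, the weakest without array 3 of day 15. At day 8 it ranged from -0.05 to 0.03, with a change of sign on the first set alone and without array 3 of day 8. Signal over background was not used here, so dim spots could not be left out.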

Other observations

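Glycolysis, which yields ATP without the chain, had 21 measured genes, of which 4 fell and 1 rose against ES at day 21 (median -0.16, n = 3 arrays). That is 23.8% of them, near the 18.7% of all features called, where the chain had 23.5%. The share called lower was 19.05%, against 23.5% of the chain and 9.93% of all features. Ldhb, a lactate dehydrogenase, was at -1.16, -0.98 and -0.87, Pdk1, which shuts off pyruvate dehydrogenase, at -1.17, -0.71 and -0.57, and the phosphofructokinase Pfkp at -0.83, -0.65 and -0.81, all below ES on every array. The lactate carrier Slc16a1 was higher at 0.92, 1.24 and 0.35. Against day 4, only Ldhb was called (-0.58, limma's adjusted p = 0.0395), a share of 4.76% against 5.84% of all features, and the median of the list was 0.02.

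Of 12 genes of fatty acid oxidation only Etfa, an electron carrier to the chain, was called at day 21 (-0.37, adjusted p = 0.0281), and the list's median was -0.04. That is 8.33% of the list, against 18.7% of all features called and 9.93% called lower. Of 7 mitochondrial antioxidant genes, the superoxide dismutase Sod2 (-0.53, adjusted p = 0.00682) and the peroxidase Gpx4 (-0.46, adjusted p = 0.0427) fell. These 2 are 28.6% of that list, to be read against the same shares of all features. Cyct, the cytochrome c of testis, was at -1.16, -1.04 and 0.89 at day 21, with array 3, of the second set, opposite to the other 2.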
